A study of Mus musculus with 12 samples.

Results

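The genes described here are 41 genes of lipid and cholesterol synthesis in mouse liver, taken by name from 21938 protein-coding genes. No measured value was used as a rule to pick them, but the list was drawn up with earlier results of these data known. The 41 genes comprise 6 regulators of lipid synthesis, 12 genes of fatty acid synthesis and desaturation, 13 genes of triglyceride synthesis, storage and export, and 10 genes of cholesterol synthesis. For each gene, peaks were counted in its promoter, defined as the bases within 1 kb of any annotated transcription start site (TSS), and in its window, defined as the gene body with 10 kb on either side. Positions are those of mm10 (GRCm38), with genes and TSSs from GENCODE vM21, and the windows of the 41 genes did not overlap each other.

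The study asked how the histone demethylase LSD1 acts on gene programs of the adult mouse liver. LSD1 was mapped by ChIP-seq in liver of wild type C57BL/6 mice, and dimethylated lysine 4 of histone H3 (H3K4me2) was mapped in liver of GFP control and LSD1-LKO mice, also C57BL/6. By the methods, the mice of both latter groups carried LSD1 fl/fl alleles, and AAV8 delivered GFP to controls and Cre to LSD1-LKO mice from the TBG promoter, which is active in hepatocytes, so non-hepatocytes of the liver kept LSD1. Each group had 2 ChIP libraries and 2 control libraries, 12 samples in all. The methods describe high-fat feeding of LSD1-LKO and GFP control mice between injection and tissue collection. For the livers used in ChIP-seq in particular, and for the wild type mice, the labels and methods name no diet. The control libraries are input in the labels and IgG in the methods.

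LSD1 (encoded by Kdm1a) removes methyl groups from mono- and dimethylated lysine 4 of histone H3, a mark of active and poised promoters and enhancers. In hepatocytes, fatty acid and cholesterol synthesis are switched on by the SREBP transcription factors, which SCAP escorts from the endoplasmic reticulum to the Golgi for activation and which the INSIG proteins hold back when sterols are plentiful. The carbohydrate response factor ChREBP, encoded by Mlxipl, acts on many of the same lipogenic genes. Fatty acids are then esterified to triglycerides, which are stored in lipid droplets or exported in very low density lipoprotein.

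The deposited data are 3 lists of peaks, with 14584 LSD1 peaks, 43891 control H3K4me2 peaks and 50675 LSD1-LKO H3K4me2 peaks. In each entry a peak of 1 library, the first-listed, is matched to a peak that it overlaps in the second-listed library, so a gene without an entry lacks a peak found in both libraries and may still have one in a single library. Read depth is unknown. All 7 hepatocyte marker genes had H3K4me2 promoter peaks in both lists, whereas 4 of 4 Kupffer cell genes and 4 of 4 genes of other tissues had none in either. Of the other liver cell markers, Stab2, Clec4g, Reln and Epcam were marked in both lists, Spp1 in the control list alone, Kdr and Lrat in the LSD1-LKO list alone, and the other 5 in neither. Kdm1a (ENSMUSG00000036940, chr4:136550540-136602723, minus strand) had no control H3K4me2 promoter peak and 2 in LSD1-LKO, values that say nothing about the deletion itself. Fewer marked cells and less mark per cell cannot be told apart in whole liver.

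Promoter sequence is shown first for 6 of the genes, chosen because they carry sterol response letters or bear the LSD1 and H3K4me2 peaks that the results below turn on. Each line gives the 250 bases before a TSS of RefSeq (GRCm38.p6), 5′ to 3′ along the gene. Capitals mark the letters TCACNCCAC of the sterol response element bound by SREBP, CACGTG of the E-box, CCAAT of the NF-Y box and GGGCGG of the Sp1 box, each searched on both strands.
Hmgcs1 (chr13:119690101-119690350, plus strand): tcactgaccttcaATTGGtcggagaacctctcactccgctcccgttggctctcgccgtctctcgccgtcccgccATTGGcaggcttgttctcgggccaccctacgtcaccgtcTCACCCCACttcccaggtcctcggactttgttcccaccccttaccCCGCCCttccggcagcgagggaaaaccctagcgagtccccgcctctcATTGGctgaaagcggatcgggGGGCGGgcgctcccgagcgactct
Mlxipl (chr5:135106641-135106890, plus strand): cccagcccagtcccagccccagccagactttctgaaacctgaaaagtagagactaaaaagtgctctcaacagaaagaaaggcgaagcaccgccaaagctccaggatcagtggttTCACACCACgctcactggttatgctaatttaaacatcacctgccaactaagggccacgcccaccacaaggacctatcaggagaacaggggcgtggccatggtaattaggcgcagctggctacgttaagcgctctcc
Insig1 (chr5:28071162-28071411, plus strand): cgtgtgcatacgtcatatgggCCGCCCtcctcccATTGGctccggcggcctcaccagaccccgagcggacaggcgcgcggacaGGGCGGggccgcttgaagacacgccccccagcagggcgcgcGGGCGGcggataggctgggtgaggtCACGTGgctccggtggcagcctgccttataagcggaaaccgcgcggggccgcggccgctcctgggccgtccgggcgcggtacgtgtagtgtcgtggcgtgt
Srebf1 (chr11:60210472-60210721, minus strand): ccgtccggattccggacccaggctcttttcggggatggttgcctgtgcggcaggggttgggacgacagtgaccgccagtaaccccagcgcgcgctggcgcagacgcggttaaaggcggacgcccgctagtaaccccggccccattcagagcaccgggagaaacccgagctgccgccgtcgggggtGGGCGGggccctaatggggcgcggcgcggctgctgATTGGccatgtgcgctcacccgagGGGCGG
Fasn (chr11:120824548-120824797, minus strand): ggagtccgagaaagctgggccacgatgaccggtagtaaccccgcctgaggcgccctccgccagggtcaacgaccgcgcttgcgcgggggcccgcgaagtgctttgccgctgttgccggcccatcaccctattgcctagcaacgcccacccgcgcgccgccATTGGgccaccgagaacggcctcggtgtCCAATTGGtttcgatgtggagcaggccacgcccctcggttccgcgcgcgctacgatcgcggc
Lss (chr10:76531355-76531604, plus strand): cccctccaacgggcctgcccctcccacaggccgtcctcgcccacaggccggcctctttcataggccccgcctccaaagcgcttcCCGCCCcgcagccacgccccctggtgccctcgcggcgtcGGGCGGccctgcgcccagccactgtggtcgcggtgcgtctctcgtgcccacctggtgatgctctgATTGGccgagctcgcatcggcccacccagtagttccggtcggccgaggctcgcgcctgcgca

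Sterol response letters were found in 2 of the 34 genes with a RefSeq promoter entry, read from 250 bases before to 50 bases after each start. In Hmgcs1, the cytosolic synthase that makes HMG-CoA for cholesterol synthesis, they began 137 bases before the start. In Mlxipl they began 136 bases before the internal start shown above, whose entry bore H3K4me2 peaks of both genotypes and no LSD1 peak. This was 5.88% of the 34 genes, against 1.42% of 16522 protein-coding genes with an entry. E-box letters were present in 8 of 34 (23.5%, against 9.18%), among them Insig1 at 101 bases before the start. NF-Y letters were present in 24 of 34 (70.6%, against 42.1%) and Sp1 letters in 26 of 34 (76.5%, against 51%). Matches of different motifs shared no base in these promoters, and a gene was counted once if any of its entries held the letters, with 1.41 entries per gene here and 1.22 over all genes. The entries held at least 1 LSD1 peak for 18 of 34 genes (52.9%, against 19.5%), and within these 18 genes Sp1 letters were present in 16 (88.9%, against 76% of all genes with LSD1 on the entry). These matches describe letters and were not tested as binding sites. Scd1, Fads1, Dgat1, Dgat2, Fdps, Fdft1 and Sqle had no entry.

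LSD1 peaks were common at these genes. In wild-type liver, 29 of 41 genes (70.7%) had an LSD1 promoter peak, compared with 24.6% of all protein-coding genes. Restricted to genes whose promoters bore H3K4me2 in both genotypes, the shares were 28 of 39 (71.8%) and 41.5%. The 41 genes had more annotated TSSs than all genes (median of 5 against 3) and therefore longer promoters, with a median of 5787 bp against 4002 bp. With 1 TSS per gene, 26 of 41 (63.4%) had a peak, against 21.4%. Most of these peaks were of modest strength. With peaks at a MACS p-value of at most 1e-05 in both libraries, 6 of 41 genes remained (14.6%, against 5.68%), namely Insig1, Fasn, Elovl5, Elovl6, Agpat2 and Mvd. An LSD1 peak lay anywhere in the window of 37 of 41 genes (90.2%), against 43.7% of all genes, and windows had a median of 43493 bp here and 37425 bp over all genes.

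**Figure D1:**
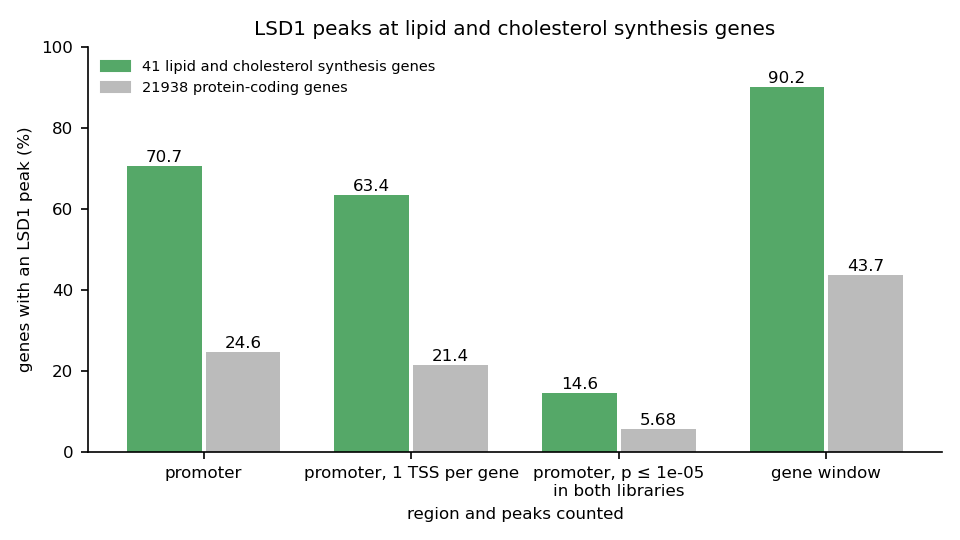
Percentage of genes with an LSD1 peak among the 41 lipid and cholesterol synthesis genes (green) and the 21938 protein-coding genes (grey), for promoters, for promoters with 1 TSS per gene, for promoters with stronger peaks and for gene windows. The green bar stands above the grey one in each pair, at 70.7% against 24.6% for promoters and 14.6% against 5.68% for stronger peaks.

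Fold enrichments are given below for the first-listed and then the second-listed LSD1 library, as MACS fold over the local control. Ranks of peaks are percentiles of the whole LSD1 list, ordered by −log10 p-value averaged over its libraries. Among the regulators, 5 of 6 had an LSD1 promoter peak. Insig1 (ENSMUSG00000045294, chr5:28071363-28078662, plus strand) had the highest-ranking promoter peak of the 41 genes, at chr5:28071390-28072094, with folds of 4.92 and 5.50 and a rank of 95.1. Its summit fell in a coding exon 271 bp after the start. Srebf1 (ENSMUSG00000020538, chr11:60199089-60222581, minus strand), which encodes the SREBP-1 proteins that drive lipogenesis, had 2 promoter peaks at different start sites. The stronger, chr11:60209728-60210844, lay 90 bp into an internal start with folds of 3.76 and 4.99 and a rank of 87.2, and the other lay 492 bp before the outermost start with folds of 3.32 and 3.50. Insig2 had 3 promoter peaks, the strongest over a UTR exon with folds of 3.34 and 4.81. Mlxipl had folds of 3.80 and 3.30 at 19 bp before a start. Srebf2 (ENSMUSG00000022463, chr15:82147181-82205379, plus strand), the regulator of cholesterol synthesis, had a weaker promoter peak with folds of 2.26 and 3.92 and a rank of 56.3.

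For Scap and Srebf2, the strongest LSD1 peaks lay outside the promoters. Scap (ENSMUSG00000032485, chr9:110333288-110384950, plus strand) had no LSD1 promoter peak, but a peak 3563 bp upstream of a start, at chr9:110329447-110330003, had folds of 7.88 and 7.48 and ranked at 99.5, the highest of all 91 LSD1 peaks in the 41 windows. Srebf2 had a peak beyond its 3′ end, 11676 bp from the nearest start, with folds of 5.95 and 4.88 and a rank of 96.1. An intronic Srebf2 peak had folds of 2.35 and 6.09 and a rank of 88.3. All 3 peaks overlapped H3K4me2 in both genotypes. The others among the 5 highest-ranking peaks outside promoters were in an Agpat2 intron, 3396 bp from a start (folds of 3.99 and 5.43, rank 94.6), and downstream of Plin5 (folds of 6.22 and 2.54, rank 91.2). The Plin5 peak lay in the promoter of the neighboring Plin4 and overlapped H3K4me2 in neither list.

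**Figure D2:**
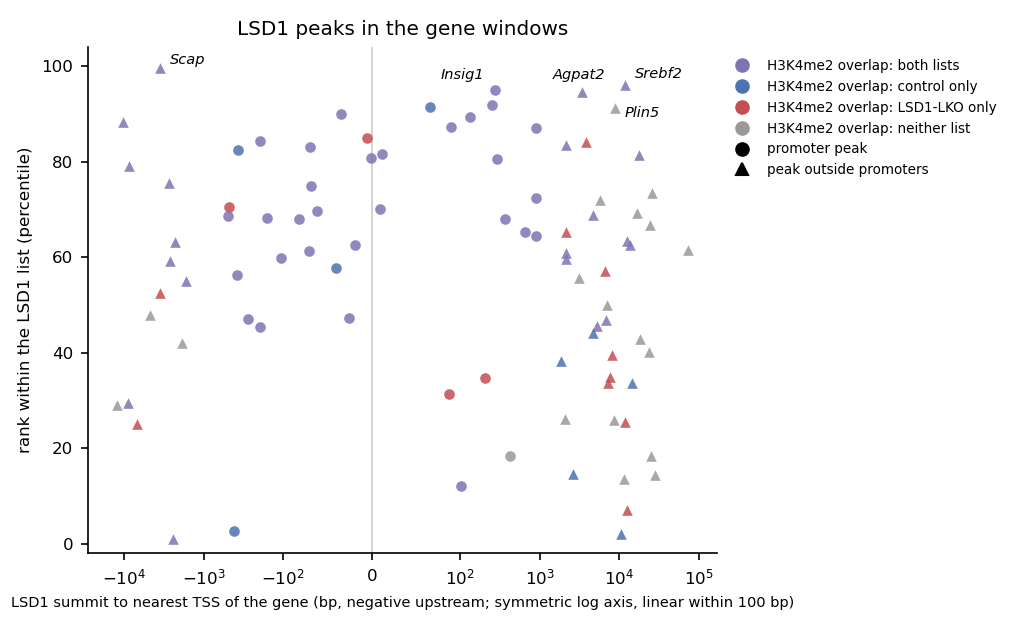
Each point is 1 of the 91 LSD1 peaks in the gene windows, placed by the distance of its summit from the nearest TSS of the gene in bp and by its rank in the LSD1 list as a percentile, with color for overlap with H3K4me2. The peak upstream of Scap is the highest at 99.5, and most promoter peaks (circles) overlap H3K4me2 of both genotypes.

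Of the genes of fatty acid synthesis and desaturation, 9 of 12 had an LSD1 promoter peak. Fasn (ENSMUSG00000025153, chr11:120805846-120824547, minus strand), the synthase that builds palmitate, had the widest of them, 2333 bp at chr11:120823364-120825696, with folds of 5.17 and 3.26 and a rank of 89.4. Elovl5 and Elovl6, which elongate polyunsaturated and saturated fatty acids, had promoter folds of 3.67 and 5.91 and of 4.56 and 3.85. Fads2, the delta-6 desaturase, had 3 promoter peaks, and the one 66 bp after a start reached folds of 3.34 and 5.70 and a rank of 91.4. Fads1, the delta-5 desaturase, had folds of 3.26 and 3.03 at 9 bp after a start. The best promoter peaks of these 4 genes ranked from 70.0 to 91.9, above the other genes of this group apart from Fasn. Acly, which makes cytosolic acetyl-CoA from citrate, had folds of 2.51 and 4.19. Acaca (ENSMUSG00000020532, chr11:84129672-84401651, plus strand), the acetyl-CoA carboxylase of the lipogenic pathway, had folds of 2.67 and 4.15 at a peak 62 bp before a start, which also lay in the promoter of Tada2a. A second Acaca promoter peak had folds of 2.61 and 2.44 and overlapped H3K4me2 in neither genotype, the single promoter peak of the 41 genes to do so. Me1, a source of NADPH, had folds of 2.09 and 3.51. Scd1 (ENSMUSG00000037071, chr19:44394455-44407879, minus strand), the stearoyl-CoA desaturase, had folds of 2.41 and 3.0 at its start and a stronger peak 17677 bp away beyond its 3′ end, with folds of 5.17 and 3.24. Acacb, Acss2 and Thrsp had no LSD1 promoter peak.

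Genes of triglyceride metabolism had LSD1 promoter peaks in 7 of 13 cases. Agpat2, an acyltransferase that makes phosphatidic acid, had 2, and the stronger had folds of 3.76 and 4.41 and a rank of 90.0 at 35 bp before a start. Lpin2, a phosphatidic acid phosphatase, had 2 as well, with folds of 3.57 and 5.0 for the stronger. Dgat1, which completes triglycerides, had folds of 4.75 and 3.27 with the summit 1 bp before a start. The lipases and their relatives were lower. Pnpla2, the adipose triglyceride lipase, had folds of 3.40 and 3.56, and Pnpla3 had 2.90 and 3.92. Cideb, a lipid droplet protein of hepatocytes, had folds of 2.0 and 2.55 and a rank of 12.2. Mttp (ENSMUSG00000028158, chr3:138089854-138144968, minus strand), which loads lipid onto apolipoprotein B, had folds of 3.01 and 2.44 at an upstream start inside the promoter of Trmt10a. Gpam, Lpin1, Dgat2, Plin2, Plin5 and Cidec had none in the promoter. Dgat2, which had none there, had 6 LSD1 peaks elsewhere in its window, with ranks from 1.97 to 42.1.

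In cholesterol synthesis, 8 of 10 genes had an LSD1 promoter peak. Mvd (ENSMUSG00000006517, chr8:122433601-122443422, minus strand), the diphosphomevalonate decarboxylase, had the strongest, with folds of 4.01 and 4.71 and a rank of 84.3. Hmgcs1 (ENSMUSG00000093930, chr13:119690379-119708260, plus strand) had 2 peaks, at chr13:119689991-119690273 with a first-listed fold of 2.2 and at chr13:119690703-119691031 with 2.32. A single second-listed peak with a fold of 5.93 was the partner of both. The upstream one of these peaks overlaps the printed Hmgcs1 sequence and its control H3K4me2 peak, and no LSD1-LKO H3K4me2 peak. Lss (ENSMUSG00000033105, chr10:76531588-76557138, plus strand), the lanosterol synthase, had folds of 3.01 and 3.82 at 476 bp before a start, and Sc5d, a late sterol desaturase, had 3.01 and 3.92. Dhcr7, the last enzyme of one branch to cholesterol, had folds of 4.45 and 2.87. The farnesyl diphosphate steps were lower in part, with folds of 3.01 and 3.56 at Fdft1 and of 1.76 and 2.51 at Fdps, which ranked at 2.63. Sqle (ENSMUSG00000022351, chr15:59315077-59331192, plus strand), the squalene epoxidase, had folds of 2.00 and 3.53 and a rank of 47.1. In the first-listed library, the −log10 p-value was 1.93 at Sqle, 1.4 at Fdps and, among the triglyceride genes, 1.93 at Cideb. These peaks thus had p above 0.01 there, the MACS threshold named in the methods. Mvk and Idi1 had no LSD1 peak in their windows, and neither had Acss2 and Plin2 of the other groups.

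Of the 91 LSD1 peaks, 38 lay in promoters and 53 outside. Among promoter peaks, 22 had a summit within 200 bp of a TSS, and the median distance was 146 bp. Median ranks were 69.1 in promoters and 52.4 outside them. Control H3K4me2 overlapped 58 of 91 LSD1 peaks (63.7%, 95% Wilson interval 53.5 to 72.9, counting error only), and the share over all gene windows was 60.9%. The interval takes the peaks as independent, although some share a second-listed partner, as at Hmgcs1. LSD1-LKO H3K4me2 overlapped 63 of 91 (69.2%), against 61.8%. The overlap was therefore near that of LSD1 peaks at genes in general. In promoters, 29 of 38 LSD1 peaks overlapped H3K4me2 of both genotypes. The 4 that overlapped control peaks alone were at Insig2, Fads2, Hmgcs1 and Fdps, and the 4 that overlapped LSD1-LKO peaks alone were at Fads2, Lpin2, Mttp and Lss. Outside promoters, 18 of 53 overlapped neither list. No share over all genes is given for this split, so it is a description of these peaks alone.

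H3K4me2 marked the promoters of nearly all 41 genes in both genotypes. A promoter peak was listed for 39 genes in control and for 41 in LSD1-LKO liver, where 59.6% and 59.8% of all protein-coding genes had one. No gene had a peak in the control list alone (4.83% of the 13777 genes marked in either list), and 2 genes had one in the LSD1-LKO list alone (5.04%). These were Lss and Cidec. Lss had no control H3K4me2 peak in its whole window. In LSD1-LKO it had 4 peaks there, of which chr10:76531510-76532458 lay over the start with folds of 6.65 and 5.63, and chr10:76530798-76531331 lay just upstream with folds of 2.38 and 5.63. Together they covered 1483 bp of promoter, and both overlapped the LSD1 peak of wild-type liver. Cidec (ENSMUSG00000030278, chr6:113424634-113435760, minus strand), a lipid droplet fusion protein, had a single LSD1-LKO promoter peak of 329 bp with folds of 2.06 and 4.25. Its −log10 p-value was 1.93 in the first-listed library, and it fell out when peaks at p above 0.01 were left out. That value is the MACS threshold named in the methods, and it was applied here after seeing the data.

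With peaks at p of at most 1e-05 in both libraries, 40 of the 41 genes were marked in at least 1 list. Of these, 6 (15%) were marked in LSD1-LKO alone, namely Lss, Mttp, Lpin1, Sc5d, Elovl6 and Acacb, against 10.1% of the 11713 genes marked in either list at that threshold. Another 2 (5%), Me1 and Plin5, were marked in control alone, against 15.3%. One-list genes were also more frequent at this threshold over all genes, and the differences in share were not tested.

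**Figure D3:**
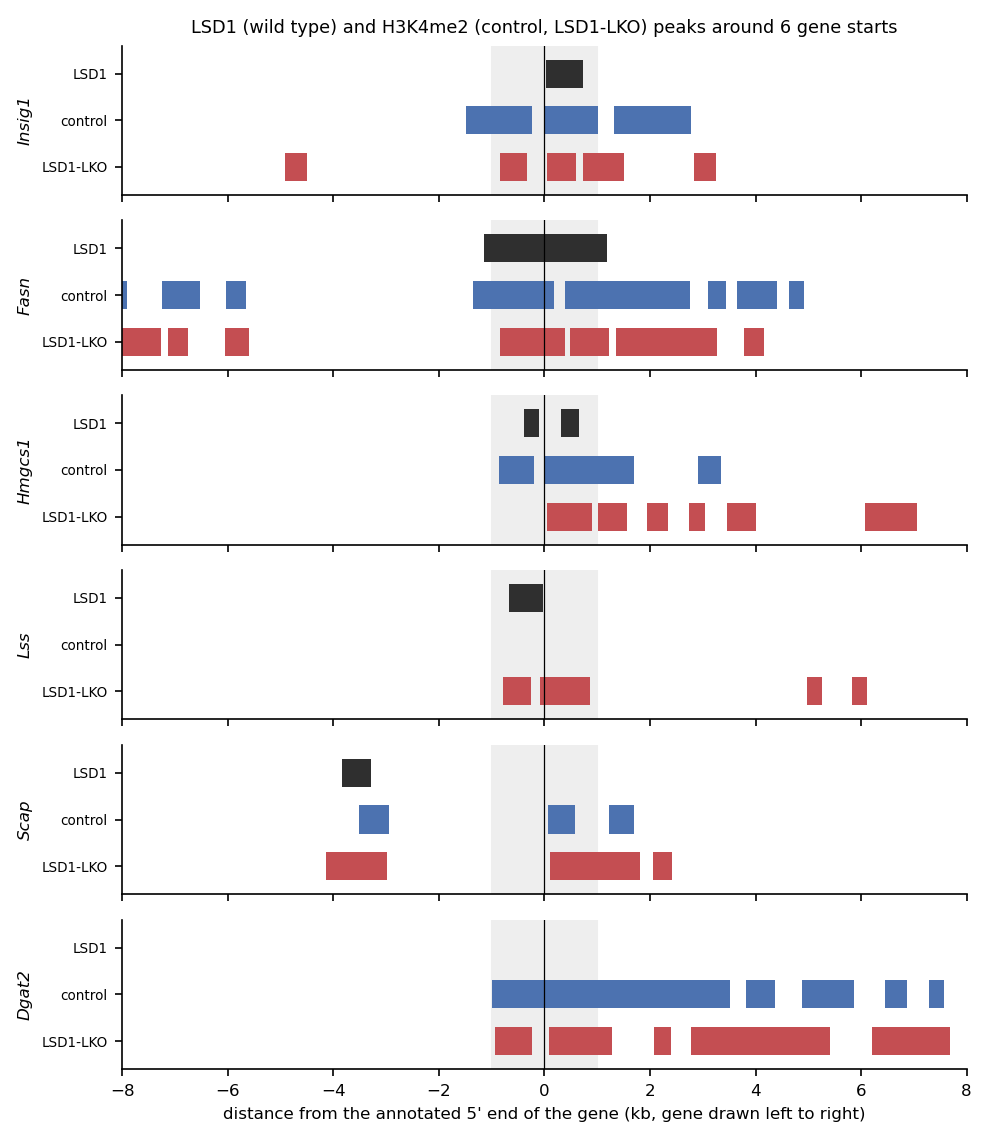
Peaks around the annotated 5′ end of 6 genes, with distance in kb on the x axis and 1 row per list (LSD1 in wild type, black; H3K4me2 in control, blue, and in LSD1-LKO, red), and grey for 1 kb on either side. Lss has no control peak while its LSD1-LKO peaks cover 1483 bp of promoter, and the control peak over the Dgat2 start is split into shorter peaks in LSD1-LKO.

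The length of promoter lying inside H3K4me2 peaks was lower in LSD1-LKO for 22 of 41 genes (53.7%) and higher for 19 (46.3%). Among genes marked in either list the shares were 59.8% and 39.9%. The median difference, LSD1-LKO minus control, was −24 bp over the 41 genes and −114 bp over the marked genes. The direction depended on which library's intervals were used. With second-listed intervals, 12 of 41 were lower (29.3%, against 42.4% of marked genes) and 28 higher (68.3%, against 52.6%), with a median of 281 bp against 25 bp. With both, 9 genes were lower (22%, against 30.4%) and 16 higher (39%, against 26.4%). Peaks were also divided differently. Promoters of the 41 genes held 92 control peaks of 1092 bp median width and 112 LSD1-LKO peaks of 783 bp, and over the whole lists the median width was 648 bp and 565 bp. The lists hold no reads, so these lengths have no replicate error of their own.

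Lengths below are in bp of promoter, first-listed intervals first. Dgat2 (ENSMUSG00000030747, chr7:99153658-99182719, minus strand), which completes triglyceride from newly made fatty acids, had the largest lower value, 5168 in control and 3239 in LSD1-LKO, and was also lower with second-listed intervals (5867 and 5024). Insig2 had 4273 and 2858, but 4046 and 4684 with second-listed intervals. Plin2, a coat protein of lipid droplets, had 3295 and 2229, and likewise turned to 2501 and 3356. Lpin1, the fasting-responsive phosphatidic acid phosphatase, was lower with both, at 2376 and 1329 and at 2306 and 2054. Fdps, the farnesyl diphosphate synthase, was lower with both as well, at 1994 and 1080 and at 2118 and 1479. Its only promoter peak in each list also lay at another gene's promoter. Thus 3 of these 5 genes kept their direction.

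The 5 genes with the largest higher values all kept theirs. Second-listed intervals gave higher values for 28 of 41 genes, and Lss had no control promoter peak, so its direction could not turn. After Lss, with 0 and 1483 and then 0 and 1731, came Mttp with 1201 and 2411 and then 1547 and 2653. The Mttp lengths were measured in part over promoter bases shared with Trmt10a, at the upstream start. Fdft1, the squalene synthase, had 3037 and 4182 and then 3630 and 4094. Pnpla2 had 1308 and 2414 and then 2358 and 2655. Scap had 1766 and 2794 and then 3769 and 4576. Among genes central to lipogenesis, Srebf1 was longer with both (6373 and 7226, then 8092 and 9340) and so was Acaca (2904 and 3121, then 2939 and 3796). Insig1 was shorter with both (2250 and 1750, then 2382 and 2280). Fasn (2554 and 2378, then 2484 and 2768), Hmgcs1 (1737 and 913, then 861 and 1106) and Srebf2 (1933 and 2275, then 2815 and 2646) changed sign. Sqle also changed sign (1591 and 2031, then 1779 and 1757), and Scd1 had 3023 and 2871 and then 3190 in both genotypes.

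**Figure D4:**
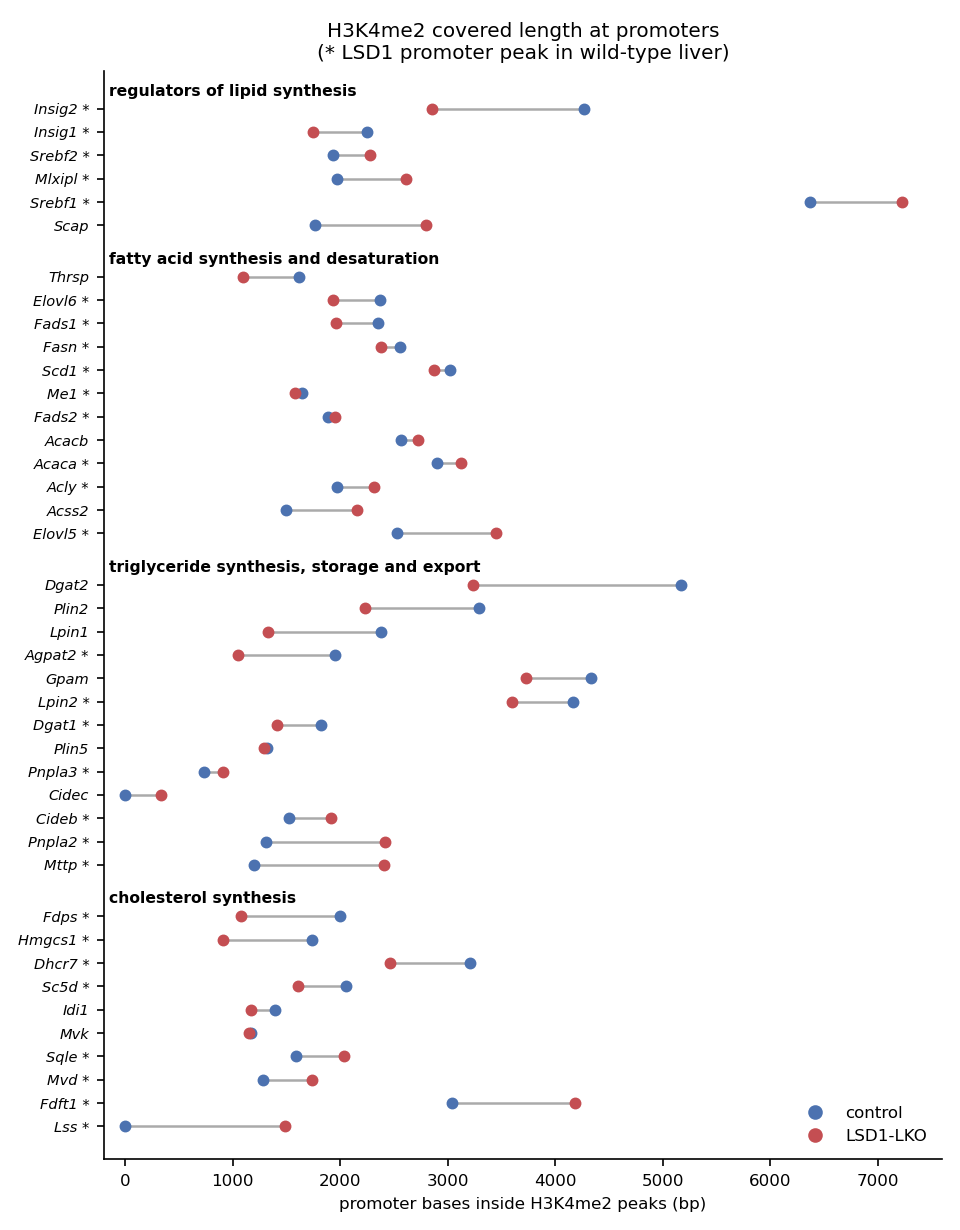
Promoter bases inside first-listed H3K4me2 peaks in bp (x axis) for each of the 41 genes in control (blue) and LSD1-LKO (red), grouped by role and sorted by the difference, with an asterisk for an LSD1 promoter peak in wild-type liver. Dgat2 has the largest lower and Lss the largest higher LSD1-LKO value, and 22 genes are lower and 19 higher.

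By role, the median difference was 489 bp for regulators, −4 bp for fatty acid genes, −410 bp for triglyceride genes and −127 bp for cholesterol genes. With second-listed intervals these medians were 503.5, 364.5, 110.0 and 263 bp, so that 3 of 4 changed from negative to positive. Over whole windows, 18 genes were lower (43.9%, against 58.1% of genes marked in either list) and 23 higher in LSD1-LKO (56.1%, against 41.9%). The median window difference was 575 bp, against −179 bp. Gpam, the mitochondrial acyltransferase that starts glycerolipid synthesis, had the largest higher value, with 12555 bp in control liver against 18360 bp. It was followed by Scap with 5338 and 8650. Dgat2 (15319 and 11113) and Fads1 (7280 and 3681) had the largest lower values. The windows held 275 control and 351 LSD1-LKO peaks. Control peaks without an overlapping LSD1-LKO peak numbered 64 of 275 (23.3%, against 29.8% over all gene windows), and LSD1-LKO peaks without a control peak 125 of 351 (35.6%, against 33.1%).

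Fold enrichment depends on each library's control and depth, so peak strength was compared between genotypes by rank. For each library, the strongest promoter peak of a gene was given its percentile by −log10 p-value among that library's listed peaks. Listed peaks are those matched in the other library of the group, so these are not ranks among all peaks of a library. The ranks of the 2 control and 2 LSD1-LKO libraries were set side by side. With 2 libraries against 2, no two-sided exact permutation test can give a p below 0.333. Of 39 genes marked in both lists, 7 (17.9%) had both LSD1-LKO libraries below both control libraries, where 16.4% of 12417 marked genes did so. Another 9 (23.1%) had both above, where 17.9% did so. The first share was near the background and the second somewhat above it, and neither was tested. Ranks were also tied, with up to 3090 control and 4586 LSD1-LKO peaks of the first-listed libraries at a single p-value.

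Lower ranks were found for Srebf2, Insig2, Me1, Thrsp, Dgat1, Plin5 and Mvk. Values are given for the first- and second-listed control library and then for those of LSD1-LKO. Plin5, a droplet protein at contacts with mitochondria, went furthest apart, with 89.8 and 87.0 against 58.5 and 64.0. Me1 had 90.9 and 97.7 against 59.2 and 76.5. Dgat1 had 99.1 and 95.1 against 85.5 and 67.1. These 3 genes and Insig2, with 96.0 and 98.5 against 92.3 and 80.7, had the widest gaps between the genotypes. For Thrsp, a lipogenic protein induced by thyroid hormone, the gap was small (79.5 and 70.7 against 69.1 and 67.6). For Mvk, mevalonate kinase, it was smaller (96.0 and 87.0 against 86.7 and 85.0), at a peak shared with another gene's promoter. For Srebf2 the ranks were 98.4 and 93.6 against 93.6 and 85.0, so the nearest libraries were almost level.

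Higher ranks were found for Srebf1, Scap, Scd1, Agpat2, Lpin1, Cideb, Mttp, Mvd and Sc5d. Mttp had ranks of 51.2 and 63.5 against 93.6 and 92.6, the widest gap of these genes. Its strongest LSD1-LKO peak was in the Mttp body in the first-listed library but lay at the shared Trmt10a promoter in the second. At the body peak itself the control folds were 3.08 and 4.98 and the LSD1-LKO folds 5.54 and 4.53. Scap had 63.3 and 66.7 against 83.5 and 81.4, and Cideb had 72.1 and 59.6 against 88.2 and 86.0. Srebf1 had 76.3 and 78.7 against 86.7 and 83.8. Mttp, Scap and Cideb were thus the most widely separated of the 9. Lpin1 (50.6 and 80.9 against 93.6 and 86.0), Agpat2 (75.2 and 67.7 against 78.5 and 82.7) and Mvd (83.3 and 87.0 against 91.8 and 95.8) followed. Scd1 (83.8 and 71.9 against 90.6 and 84.2) and Sc5d (43.9 and 82.8 against 91.8 and 83.8) separated by about a percentile or less. In 12 of the 16 genes the same peak was strongest in both libraries of each list, and it differed for Cideb, Mttp, Mvd and Srebf1. Ranked by fold enrichment, Srebf1, Scd1 and Mvd overlapped between the genotypes and Dhcr7 joined the higher genes.

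**Figure D5:**
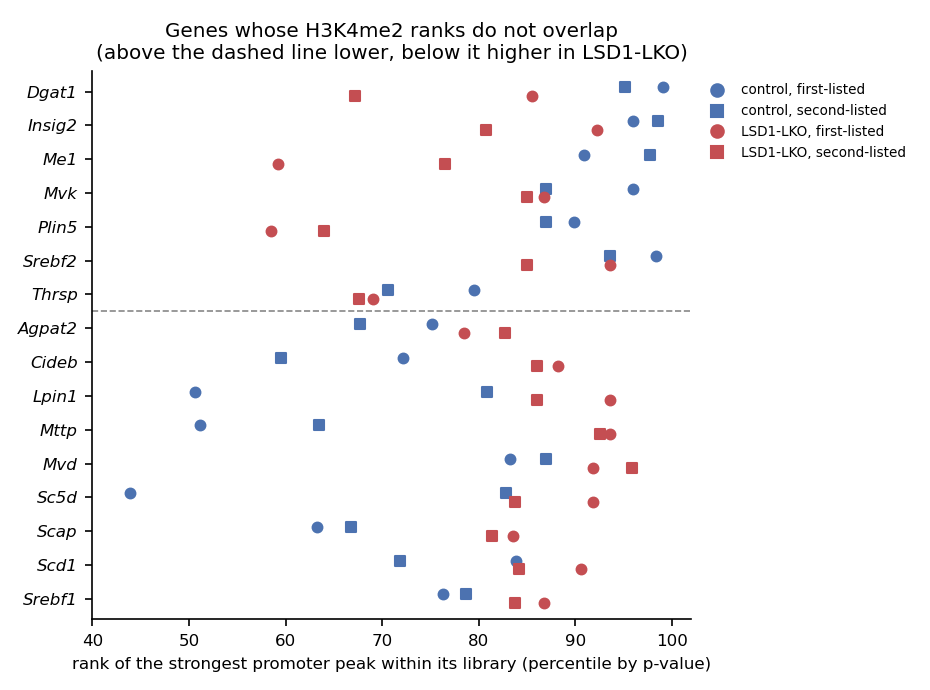
Rank of the strongest promoter H3K4me2 peak among each library's listed peaks (x axis, percentile by p-value) for the 16 genes whose 2 control (blue) and 2 LSD1-LKO (red) libraries do not overlap, with circles for first-listed and squares for second-listed libraries. The 7 genes above the dashed line are lower in LSD1-LKO and the 9 below it are higher, with Mttp the widest apart at 51.2 and 63.5 against 93.6 and 92.6.

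The remaining libraries overlapped. Insig1 had 97.1 and 87.0 against 88.3 and 93.5, Fasn 94.7 and 60.2 against 92.3 and 92.4, and Hmgcs1 92.1 and 65.6 against 88.5 and 63.1. Acaca had 94.0 and 92.3 against 93.6 and 95.9. Sqle stood near the top of every library's listed peaks, at 99.8 and 96.3 against 93.6 and 99.6.

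Another 49 genes of the same pathways, such as Cyp51, Lipe and Ppara, gave a frame for these counts. Of them, 23 (46.9%) had an LSD1 promoter peak, against 70.7% of the 41 genes and 24.6% of all genes. Nearly all of the 49 bore promoter H3K4me2 in both genotypes, and 41.5% of all genes so marked had an LSD1 promoter peak. The 46.9% was near that share, and no difference was tested. Cyp51, the lanosterol demethylase of cholesterol synthesis, had LSD1 folds of 5.35 and 2.90, and Lipe, the hormone-sensitive lipase, had 3.44 and 5.34. All 49 had an H3K4me2 promoter peak in control and 48 in LSD1-LKO, the exception being Ggps1, with 1582 bp in control and 0 in LSD1-LKO. With first-listed intervals, covered promoter length was lower in LSD1-LKO for 24 and higher for 25. Of genes marked in either list, 59.8% were lower and 39.9% higher. Ranks were below control in both LSD1-LKO libraries for 12 genes and above in both for 6. Of all genes marked in both lists, 16.4% were lower and 17.9% higher. The 41 genes had 7 lower and 9 higher, and the difference between the 2 sets was not tested.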

How the data were processed

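ChIP-seq was performed on mouse liver. The authors mapped reads to mm10 with Bowtie 2, called narrow peaks per library with MACS2 against control libraries and intersected the libraries of a group with bedtools 2.25.0. The deposited fold enrichment is a ratio of ChIP pileup to local control. The deposited −log10 p-values and −log10 q-values are also MACS output, and q-values entered no comparison. Of the per-library values, 9 columns (integer scores and second-listed summit offsets) were not used. All 21 chromosomes of the lists matched GRCm38.p6 in name, with no peak past an end.

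Overlaps of at least 1 bp counted. Positions are those of first-listed peaks. The genes, pathway lists and markers were chosen with earlier results of these data known. No test was run across genes. Genes with values in the text are those with an LSD1 promoter peak, an H3K4me2 promoter peak in 1 list alone or non-overlapping ranks, the 5 largest promoter length differences each way, the 5 highest-ranking LSD1 peaks outside promoters, and Srebf1, Srebf2, Insig1, Fasn, Acaca, Scd1, Hmgcs1, Sqle, Mttp and Kdm1a. Window differences, the pathway genes outside the 41, the LSD1 peaks of Dgat2 and the printed sequences were chosen after their values were seen. Alternatives covered promoter width, TSS choice, MACS threshold, library intervals, overlap rule and rank measure. Interval arithmetic was tested on simulated data. Python 3.11.15, numpy 2.4.6, pandas 2.3.3, scipy 1.17.1 and matplotlib 3.10.9 were used. Results for some pathway genes outside the 41 are not reported here.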

Additional observations from a re-analysis of the deposited data

How the results depend on the processing

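The MACS threshold changed the most results. With peaks at p of at most 1e-05 in both libraries, 6 genes had an LSD1 promoter peak, 9 an LSD1 peak in the window, 2 an H3K4me2 promoter peak in control alone and 6 in LSD1-LKO alone, and the median difference of covered promoter length (−24 bp in the report) turned to 159 bp. At p of at most 0.01, the threshold of the methods but added here after seeing the data, 1 gene was marked in LSD1-LKO alone. At that threshold 26 genes had an LSD1 promoter peak, with Cideb, Fdps and Sqle falling out. With second-listed intervals the median difference was 281 bp at promoters and 1525 bp in windows. With an overlap of 50% of the narrower interval, 46.15% of LSD1 peaks overlapped control H3K4me2. The cause was not tested. Other promoter definitions gave median differences of 0 bp (500 bp either side), −150 bp (2 kb) and −47 bp (1 TSS per gene), and the window median (575 bp in the report) was 186 bp at p of at most 1e-05. Elsewhere, counts stayed within 1.5 times those of the report. No paired analysis was possible because the lists carry no replicate numbers. Unknown depth limits every absence of a peak.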
